A study of Homo sapiens with 18 samples.

Results

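The transcripts described here encode 10 factors: the 4 FOS proteins (FOS, FOSB, FOSL1 and FOSL2), the 3 JUN proteins (JUN, JUNB and JUND), ATF3, EGR1 and IER3. They were chosen by name, as AP-1 subunits and immediate early genes, from the 23106 gene symbols in the count files, and all 10 passed the filter on low counts in each cell line. The study compared normoxic with hypoxic cells of 3 human lines, with polyA+ RNA-seq in 3 samples per group and 18 libraries in all. HKC-8 is a renal tubule line, RCC4 a renal carcinoma line and HepG2 a hepatocellular carcinoma line. The RCC4 cells carried a stable transfection of wild-type VHL, the gene for the ubiquitin ligase subunit that marks hypoxia-inducible factor (HIF) for destruction, and whether they were 1 clone is not given in the sources used here. Hypoxia is labelled as 0.5% oxygen for 16 h in HKC-8 and HepG2 and as 1.0% oxygen for 24 h in RCC4. The HKC-8 titles read 0.1% for the hypoxic and 21% for the normoxic samples, and a figure legend of the study describes the RNA-seq of all 3 lines with the exposure on the HKC-8 and HepG2 labels. Cell line and exposure therefore cannot be told apart wherever RCC4 is compared with another line. If the HKC-8 titles are right, the same holds for HKC-8 against HepG2.

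AP-1 is a dimer of leucine zipper proteins that binds a short DNA palindrome, and each FOS protein needs a JUN partner whereas JUN proteins also pair among themselves. Immediate early genes are those transcribed within minutes of a growth factor, cytokine or stress without new protein synthesis, mostly through cAMP response elements and serum response (CArG) elements that are already occupied by CREB, ATF and SRF proteins. ATF3 is a zipper protein of the same superfamily that often represses, EGR1 is a zinc finger factor induced by the same kinases, and IER3 is a small stress-induced protein that modulates cell survival.

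The 250 bases before the RefSeq transcription start were available for 8 of the 10 genes, and FOSL1 and IER3 are named only. There were 9 windows because 2 starts were available for ATF3, and other starts of these genes were not searched. Each window was matched once to GRCh37. They were searched on both strands for TGACG, the half-site of the cAMP response element, for the full element TGACGTCA, for the AP-1 site TGACTCA, for ACGTG or GCGTG (the core of the hypoxia response element bound by HIF), for the CArG box, for the EGR site GCGTGGGCG or GCGGGGGCG and for TATAAA. The full element contains the half-site on each strand. The half-site was not named in the list of motifs planned for the search, so its matches are given as a description. TGACG was found in 7 of the 8 genes, against 21.2% of 35116 RefSeq promoters of the same length. In 4 of them it began between 70 and 56 bases before the start, a range chosen after the positions were seen and shared by 2.4% of all promoters. Those 4 stretches are shown because they are the sequence that the FOS, FOSB, FOSL2 and EGR1 promoters have in common, with the half-site in capitals (CGTCA where it lies on the opposite strand).
FOS, chr14:75745455-75745484, forward strand: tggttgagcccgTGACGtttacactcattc
FOSB, chr19:45971182-45971211, forward strand: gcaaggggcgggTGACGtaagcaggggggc
FOSL2, chr2:28615647-28615676, forward strand: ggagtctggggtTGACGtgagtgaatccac
EGR1, chr5:137801090-137801119, forward strand: tatggccatgtaCGTCAcgacggaggcgga
In FOSL2 the half-site runs on into the hypoxia response element core ACGTG, which overlaps it from 64 to 60 bases before the start, and 8 of the 30 bases printed are also annotated as exon. The whole FOSL2 window (chr2:28615475-28615724) lies downstream of the annotated gene start at 28615315, so it is not the sequence before that start. The core was found in 5 of the 8 genes, with 3 matches in JUNB and 1 each in FOS, FOSL2, JUN and EGR1, against 43.2% of all promoters.

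Another pair of stretches shows elements found in 1 of the genes each. JUND alone held the full cAMP response element (1.65% of all promoters), and EGR1 alone held CArG boxes, 2 of them (1.16% of all promoters hold at least 1). Capitals mark the element or the boxes.
JUND, chr19:18392614-18392643, reverse strand: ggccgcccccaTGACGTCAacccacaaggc
EGR1, chr5:137801057-137801100, forward strand: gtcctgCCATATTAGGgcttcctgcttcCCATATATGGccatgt
No window held the AP-1 site, which 4.2% of promoters hold, or the EGR site, which 5.37% hold. TATAAA was found in FOS, FOSB, JUNB and the downstream ATF3 window, against 10.7% of promoters. These matches describe letters in a short window, so a gene without a match may hold the element farther from the start. Binding was not measured in the data used here.

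**Figure D1:**
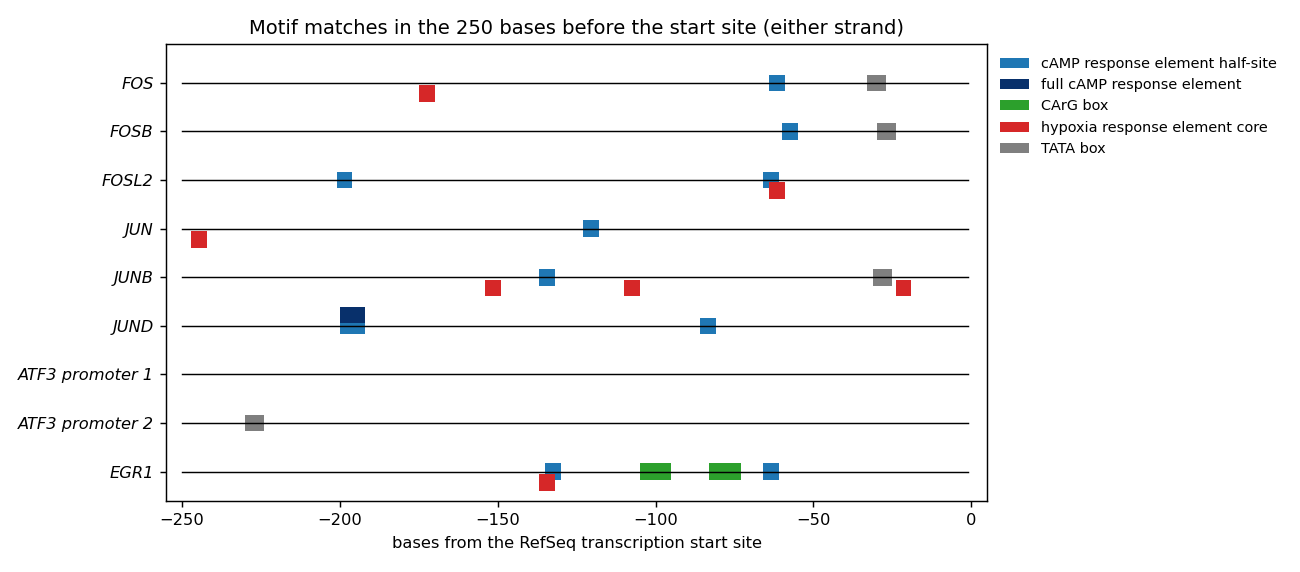
Motif matches in the 9 promoter windows, drawn against distance in bases from the RefSeq transcription start, 1 line per window. Boxes are matches on either strand, and the half-site lies between 70 and 56 bases before the start in FOS, FOSB, FOSL2 and EGR1.

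The libraries held 40915980 to 97984260 counted reads, and levels are given as CPM, read counts scaled to library size with TMM factors over all 18 samples. All 10 hepatocyte markers were above 1 CPM in HepG2, and the summed level of the list was at most 0.564 CPM in HKC-8 and 11.3 CPM in RCC4. Of 10 renal tubule markers, 4 were above 1 CPM in HKC-8 (PAX8 among them), 6 in RCC4 and 5 in HepG2. Of the proximal tubule genes of that list, LRP2, CUBN and SLC34A1 had group means under 1 CPM in all 3 lines, while in normoxia GGT1 stood at 166 CPM in RCC4 and 29.9 CPM in HepG2, AQP1 at 3.92 CPM in RCC4, and ANPEP at 2.82 CPM in HKC-8 and 263 CPM in HepG2. Of 10 genes used to check the exposure (among them CA9, NDRG1 and VEGFA), all 10 rose in HKC-8 and HepG2, and all 8 that could be tested rose in RCC4.

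In HKC-8 cells, 5 of the 10 transcripts rose in hypoxia (FOS, FOSL2, JUND, ATF3 and IER3) and none fell at an adjusted p under 0.05 in the edgeR quasi-likelihood test. Of all 13536 genes tested, 20.4% were called in either direction, 11.2% higher and 9.12% lower. In RCC4 cells, 5 rose (FOSL1, FOSL2, JUN, JUNB and IER3) and 2 fell (JUND and EGR1), where 50.1% of 12811 genes were called, 25.9% higher and 24.2% lower. In HepG2 cells, 8 rose (FOS, FOSB, FOSL2, JUN, JUNB, JUND, ATF3 and IER3) and none fell, where 39.1% of 13623 genes were called, 19.9% higher and 19.2% lower. The median log2 fold change of the 10 transcripts was 0.79 in HepG2, 0.49 in HKC-8 and 0.29 in RCC4, and the median over all genes was -0.0044, 0.0036 and -0.0018. FOSL2 and IER3 rose in all 3 lines, as did 3.81% of the 11418 genes tested in all of them. FOS, FOSL2, JUND, ATF3 and IER3 rose in both HKC-8 and HepG2 (5.62% of genes), and JUND alone was called higher in some lines and lower in another (5.97% of genes). The labels do not say whether samples of a group came from separate cultures, so these p-values measure the spread between samples, which may be technical. In bulk RNA, a change in the share of cells that express a gene and a change in RNA per cell cannot be told apart.

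**Figure D2:**
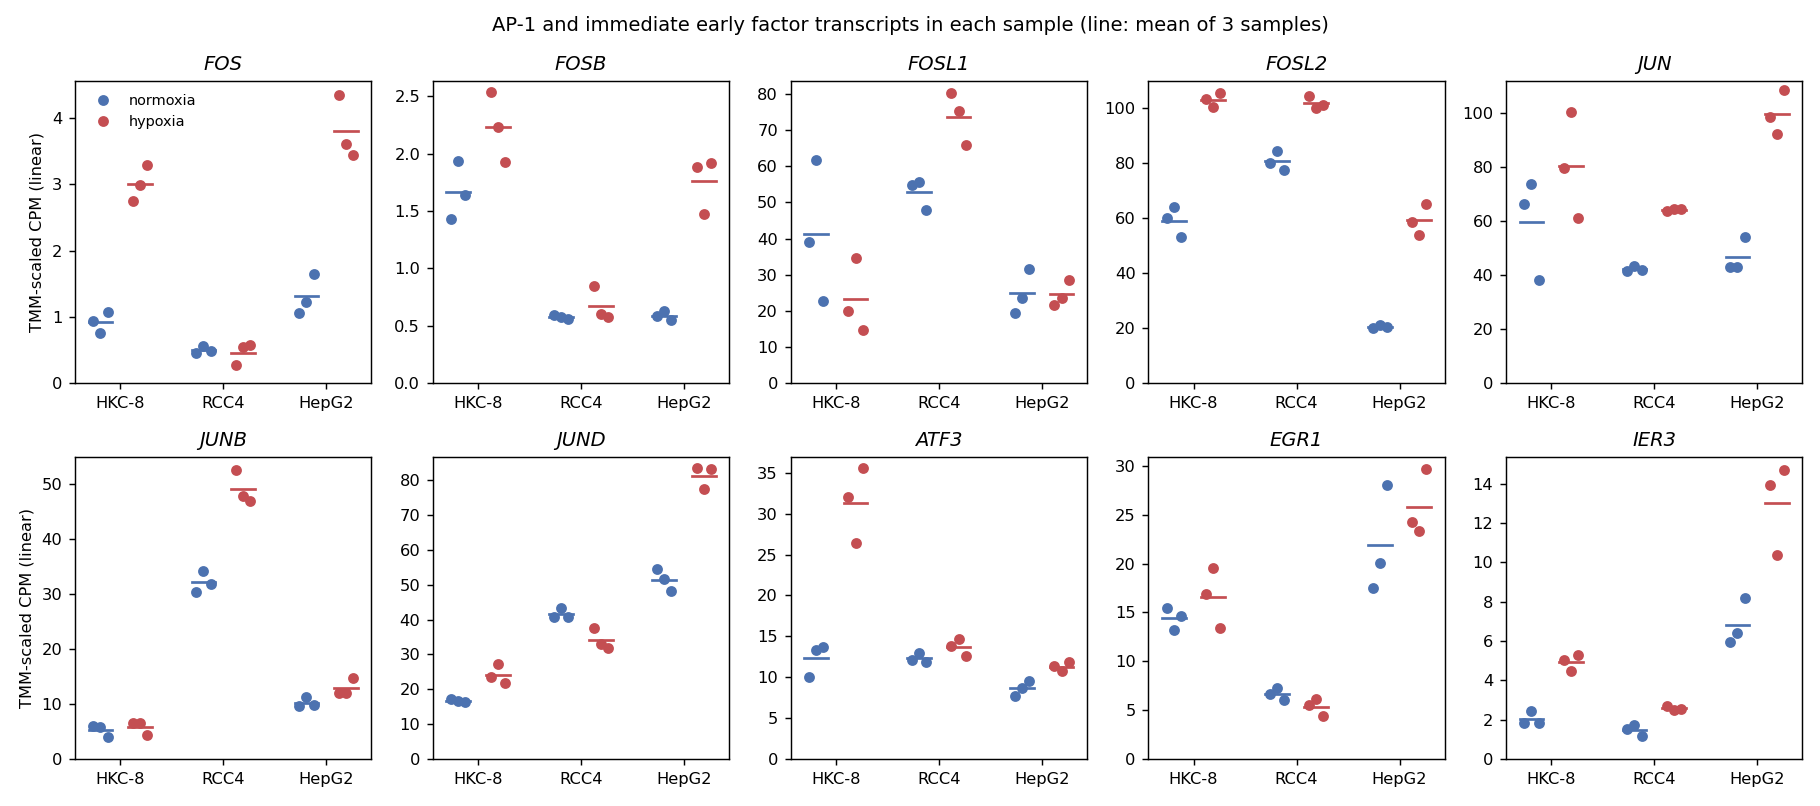
TMM-scaled CPM (linear axis starting at 0) of each transcript in each of the 18 samples, normoxia in blue and hypoxia in red, with a line at the mean of 3 samples. FOSL2 and IER3 have all hypoxic samples above all normoxic ones in each line, and JUND has them above in HKC-8 and HepG2 and below in RCC4.

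FOS (chr14:75745529-75748933, GRCh37, 4 exons), the founding AP-1 subunit and a classic transient responder to serum, was a rare transcript in all lines. In HKC-8 it measured 0.935, 0.764 and 1.08 CPM in the normoxic and 2.75, 2.99 and 3.29 CPM in the hypoxic samples. In HepG2 the values were 1.07, 1.23 and 1.65 CPM in normoxia and 4.36, 3.60 and 3.44 CPM in hypoxia. Every hypoxic sample of these lines lay above every normoxic one, with log2 fold changes of 1.70 (SE 0.20, adjusted p = 0.000948) in HKC-8 and 1.53 (SE 0.20, adjusted p = 4.78e-05) in HepG2. In RCC4 the samples measured 0.454, 0.556 and 0.491 CPM in normoxia and 0.268, 0.541 and 0.580 CPM in hypoxia. The RCC4 groups overlapped, and these values rest on 13 to 28 reads per library. The log2 fold change there was -0.11, with a 95% interval from -0.90 to 0.69.

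FOSB (chr19:45971253-45978437, 4 exons), a FOS relative with a long-lived splice form, rose in HepG2. HepG2 samples held 0.589, 0.627 and 0.549 CPM in normoxia and 1.88, 1.48 and 1.91 CPM in hypoxia, without overlap, and the log2 fold change was 1.57 (SE 0.24, adjusted p = 0.000208). The FOSB values of normoxic HepG2 cells rest on 23 to 28 reads per library, and those of hypoxic HepG2 cells on 68 to 79. In HKC-8, where it was most abundant in normoxia, the values were 1.43, 1.93 and 1.64 CPM in normoxia and 2.53, 2.23 and 1.93 CPM in hypoxia. The HKC-8 groups overlapped, and the log2 fold change of 0.42 did not pass (95% interval -0.03 to 0.88, adjusted p = 0.169). RCC4 ranged from 0.562 to 0.845 CPM over its 6 samples, on 24 to 41 reads, with a log2 fold change of 0.23 (95% interval -0.46 to 0.92).

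FOSL2 (chr2:28615315-28640184, 4 exons) encodes FRA2, a FOS-related subunit that lacks the strong activation domain of FOS and remains after the early wave. It measured 60.0, 64.2 and 53.2 CPM in normoxic and 103, 100.4 and 106 CPM in hypoxic HKC-8 cells. In RCC4 it measured 80.3, 84.4 and 77.7 CPM in normoxia and 104, 100.3 and 101 CPM in hypoxia. In HepG2 it measured 20.2, 21.1 and 20.5 CPM in normoxia and 58.7, 53.8 and 65.3 CPM in hypoxia. No hypoxic sample overlapped a normoxic one in any line, and the hypoxic samples of both renal lines lay between 100.3 and 106 CPM. The log2 fold change was largest in HepG2, at 1.52 (SE 0.08, adjusted p = 6.94e-09), then 0.81 (SE 0.09, adjusted p = 0.000485) in HKC-8 and 0.34 (SE 0.04, adjusted p = 2.79e-07) in RCC4.

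FOSL1 (chr11:65659520-65668044, 4 exons) encodes FRA1, the FOS-related subunit associated with invasive carcinoma cells, and it rose in RCC4. In RCC4 it measured 54.9, 55.6 and 47.9 CPM in normoxia and 80.3, 75.2 and 65.8 CPM in hypoxia, without overlap, a log2 fold change of 0.49 (SE 0.06, adjusted p = 6.39e-07). In HKC-8 it measured 39.0, 61.8 and 22.8 CPM in normoxia and 20.0, 34.7 and 14.7 CPM in hypoxia, for replicates 1, 2 and 3 in that order. The HKC-8 replicates spread widely and the groups overlapped, while each hypoxic sample lay below the normoxic sample of its own number. The log2 fold change of -0.83 did not pass (95% interval -1.67 to 0.02, adjusted p = 0.147), and with the replicate number as a block, which the HKC-8 samples share, it was -0.81 with an adjusted p of 3.10e-05. Without normoxic replicate 3 it was -1.12 (adjusted p = 0.0318) and without hypoxic replicate 2 it was -1.24 (adjusted p = 0.0358), whereas without normoxic replicate 2 it was -0.41 (adjusted p = 0.447). In HepG2 the samples ranged from 19.3 to 31.6 CPM in normoxia and from 21.7 to 28.5 CPM in hypoxia, a log2 fold change of -0.02 (95% interval -0.34 to 0.30). The RCC4 call was lost in a joint fit, in which 1 spread, the filter and the scaling were set over all 18 samples (adjusted p = 0.244).

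JUN (chr1:59242517-59249720, reverse strand, 1 exon), the main dimer partner of FOS and the target of the JNK kinases, rose in RCC4 and HepG2. In RCC4 it measured 41.5, 43.2 and 41.8 CPM in normoxia and 63.7, 64.3 and 64.4 CPM in hypoxia. In HepG2 it measured 42.8, 43.0 and 54.1 CPM in normoxia and 98.6, 92.0 and 108 CPM in hypoxia. Neither line overlapped, and the log2 fold changes were 0.61 (SE 0.04, adjusted p = 7.68e-11) and 1.09 (SE 0.09, adjusted p = 7.45e-07). In HKC-8 the values were 66.3, 73.6 and 38.3 CPM in normoxia and 79.5, 100.2 and 61.2 CPM in hypoxia for replicates 1 to 3. These groups overlapped, with each hypoxic sample above the normoxic sample of its own number. The log2 fold change of 0.44 did not pass (95% interval -0.10 to 0.98, adjusted p = 0.223), and with the replicate block it was 0.46 with an adjusted p of 0.000928. FOSL1 and JUN were the transcripts that the block added in HKC-8, which made 7 of 10 called, where 5755 of all genes were called with the block against 2757 without it.

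JUNB (chr19:12902300-12904129, 1 exon), a JUN protein that can restrain JUN, was most abundant in RCC4. It measured 30.5, 34.3 and 31.9 CPM in normoxic and 52.6, 47.8 and 47.0 CPM in hypoxic RCC4 cells, a log2 fold change of 0.61 (SE 0.06, adjusted p = 4.06e-09). In HepG2 it measured 9.70, 11.4 and 9.74 CPM in normoxia and 12, 12.1 and 14.7 CPM in hypoxia. The HepG2 groups lay next to each other without overlap, and the log2 fold change was 0.33 (SE 0.11, adjusted p = 0.0337). That call was lost with scaling by total counts alone (adjusted p = 0.105), with 1 spread over all 18 samples (adjusted p = 0.117), and without normoxic replicate 1 (adjusted p = 0.115), normoxic replicate 3 (adjusted p = 0.0691) or hypoxic replicate 3 (adjusted p = 0.157). In HKC-8 it ranged from 3.99 to 5.95 CPM in normoxia and from 4.29 to 6.61 CPM in hypoxia, and the log2 fold change of 0.15 did not pass (95% interval -0.34 to 0.63). An exon of HOOK2 overlaps JUNB on the opposite strand, and since the strand setting of the counting is not given in the sources used here, reads of the 2 genes may not be separable.

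JUND (chr19:18390504-18392432, reverse strand, 1 exon) encodes the JUN protein that is usually expressed steadily and is associated with quiescence. It measured 17.3, 16.6 and 16.4 CPM in normoxic and 23.4, 27.2 and 21.8 CPM in hypoxic HKC-8 cells. In HepG2 it measured 54.4, 51.6 and 48.3 CPM in normoxia and 83.4, 77.4 and 83.1 CPM in hypoxia. In RCC4 it measured 40.6, 43.2 and 40.6 CPM in normoxia and 37.5, 33.0 and 31.8 CPM in hypoxia. The groups did not overlap in any line, but hypoxia was the higher group in HKC-8 and HepG2 and the lower group in RCC4. The log2 fold change was 0.53 (SE 0.11, adjusted p = 0.0107) in HKC-8, 0.66 (SE 0.07, adjusted p = 4.80e-06) in HepG2 and -0.28 (SE 0.06, adjusted p = 0.000358) in RCC4, and the 3 calls and directions held under every alternative run.

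ATF3 (chr1:212738676-212794119, 4 exons), which is induced by the integrated stress response as well as by growth signals, rose most in HKC-8. There it measured 10.1, 13.4 and 13.7 CPM in normoxia and 32, 26.4 and 35.6 CPM in hypoxia, a log2 fold change of 1.34 (SE 0.15, adjusted p = 0.000776). In HepG2 it measured 7.75, 8.73 and 9.55 CPM in normoxia and 11.3, 10.7 and 11.8 CPM in hypoxia. All hypoxic HepG2 samples were above the normoxic ones, by a log2 fold change of 0.38 (SE 0.11, adjusted p = 0.0118) that fell short without normoxic replicate 1 (0.30, adjusted p = 0.0579). In RCC4 the ranges of 11.8 to 13 CPM in normoxia and 12.5 to 14.7 CPM in hypoxia overlapped, and the log2 fold change of 0.16 did not pass (adjusted p = 0.105) except without hypoxic replicate 3 (0.22, adjusted p = 0.0467).

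EGR1 (chr5:137801168-137804992, 2 exons), the zinc finger factor with CArG boxes in its promoter, had overlapping groups in every line. In RCC4 it measured 6.68, 7.31 and 5.99 CPM in normoxia and 5.50, 6.19 and 4.35 CPM in hypoxia. The log2 fold change of -0.31 (SE 0.13, adjusted p = 0.0446) lay close to the threshold. It was lost in DESeq2 (adjusted p = 0.0578), with 1 spread over all samples (adjusted p = 0.231), and without normoxic replicates 1 (adjusted p = 0.0913) or 2 (adjusted p = 0.191) or hypoxic replicates 1 (adjusted p = 0.0537) or 3 (adjusted p = 0.255). HKC-8 ranged from 13.2 to 15.5 CPM in normoxia and from 13.4 to 19.5 CPM in hypoxia, a log2 fold change of 0.21 (95% interval -0.12 to 0.53). HepG2 ranged from 17.5 to 28.0 CPM in normoxia and from 23.4 to 29.7 CPM in hypoxia, a log2 fold change of 0.24 (95% interval -0.07 to 0.55). This HepG2 change passed without normoxic replicate 3 (0.44, adjusted p = 0.00293) and was 0.095 (adjusted p = 0.630) without normoxic replicate 1.

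IER3 (chr6:30710976-30712325, reverse strand, 2 exons) rose in all 3 lines. It measured 1.82, 2.44 and 1.83 CPM in normoxic and 5.04, 4.46 and 5.27 CPM in hypoxic HKC-8 cells. In RCC4 it measured 1.5, 1.71 and 1.15 CPM in normoxia and 2.70, 2.48 and 2.52 CPM in hypoxia. In HepG2 it measured 5.94, 6.40 and 8.16 CPM in normoxia and 14, 10.4 and 14.7 CPM in hypoxia. None of these groups overlapped, and the log2 fold changes were 1.28 (SE 0.18, adjusted p = 0.00213), 0.82 (SE 0.20, adjusted p = 0.00126) and 0.93 (SE 0.15, adjusted p = 0.000282). Exons of HCG20 and IER3-AS1 overlap the gene on the opposite strand, with the same limit as for JUNB.

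Counted by separation alone, the hypoxic samples all lay above the normoxic ones for 8 transcripts in HepG2 and for 5 each in HKC-8 and RCC4, and all below for 1, JUND in RCC4. Over all genes tested, groups did not overlap in either direction for 39.2% in HKC-8 (19.7% higher), for 49.7% in HepG2 (24.6% higher) and for 56.6% in RCC4 (28.2% higher and 28.3% lower).

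Whether the lines differed in their response was tested as the interaction of cell line and oxygen. HKC-8 and HepG2, which the labels but not the sample titles give the same exposure, differed for 3 of the 10 transcripts. Of all genes, 9.3% differed, 4.28% with the larger response in HKC-8 and 5.02% with the larger one in HepG2. The response of FOSL2 was smaller in HKC-8 by 0.72 on the log2 scale (difference -0.72, SE 0.12, adjusted p = 0.00138), and so was that of FOSB (difference -1.15, SE 0.30, adjusted p = 0.0245). The response of ATF3 was larger in HKC-8 (difference 0.96, SE 0.20, adjusted p = 0.00583). The FOS responses of these lines were not shown to differ, and the difference of 0.16 had a 95% interval from -0.45 to 0.78. The same holds for JUND (difference -0.13, 95% interval -0.39 to 0.13) and IER3 (difference 0.35, 95% interval -0.17 to 0.87). The FOSB difference passed in the fit of all samples but was lost without any of 6 single libraries, namely HKC-8 normoxic replicate 2 (adjusted p = 0.0615) and hypoxic replicate 3 (adjusted p = 0.0513), and HepG2 normoxic replicates 1 (adjusted p = 0.0573) and 3 (adjusted p = 0.0509) and hypoxic replicates 1 (adjusted p = 0.0707) and 3 (adjusted p = 0.0665). The JUN difference of -0.66 (adjusted p = 0.174) passed without HKC-8 normoxic replicate 3 (-0.87, adjusted p = 0.0117) and with the replicate block (-0.64, adjusted p = 0.000744), and it was -0.47 (adjusted p = 0.351) without HKC-8 normoxic replicate 2. The block also added FOSL1 (difference -0.81, adjusted p = 0.000270), but the HepG2 replicate numbers did not meet the rule for pairs given below.

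The log2 fold change was lower in RCC4 than in HKC-8 for 4 transcripts, where 15.2% of genes differed in either direction and 7.29% in this one. These were FOS (difference -1.82, SE 0.38, adjusted p = 0.00626), ATF3 (-1.20, SE 0.19, adjusted p = 0.00116), JUND (-0.83, SE 0.12, adjusted p = 0.000703) and FOSL2 (-0.48, SE 0.09, adjusted p = 0.00355). JUND fell in RCC4 and rose in HKC-8 and HepG2, so its differences are between opposite directions. Against HepG2, RCC4 was lower in its response for 5, where 22.6% of genes differed and 11.7% in this direction. These were FOS (difference -1.65, SE 0.39, adjusted p = 0.00451), FOSB (-1.35, SE 0.37, adjusted p = 0.0126), FOSL2 (-1.19, SE 0.09, adjusted p = 1.06e-08), JUND (-0.95, SE 0.09, adjusted p = 5.21e-07) and JUN (-0.49, SE 0.10, adjusted p = 0.00195). Both comparisons use the same 6 RCC4 samples, and the longer and milder exposure on the RCC4 labels cannot be told apart from the cell line in either. FOSL1 pointed the other way, with a response larger in RCC4 than in HKC-8 by 1.29 (95% interval 0.37 to 2.21, adjusted p = 0.0579), and it passed with the replicate block (1.28, adjusted p = 6.02e-07), without the low-count filter (1.32, adjusted p = 0.0285), and without HKC-8 normoxic replicate 3 (1.59, adjusted p = 0.00536) or hypoxic replicate 2 (1.72, adjusted p = 0.00853). This FOSL1 difference also passed in the joint fit of all 18 samples (1.31, adjusted p = 0.0304). Without HKC-8 normoxic replicate 2 it was 0.88 (adjusted p = 0.133). With the block, JUNB (0.45, adjusted p = 0.00648) and EGR1 (-0.53, adjusted p = 0.0374) also differed between RCC4 and HKC-8. Against HepG2, the FOSL1 difference of 0.50 (adjusted p = 0.0519) and the EGR1 difference of -0.56 (adjusted p = 0.0718) passed with the block (0.48, adjusted p = 0.00109, and -0.58, adjusted p = 0.00466). The replicate numbers of RCC4 and HepG2 did not meet the rule for pairs given below, so the block is not shown to match real pairs there. FOSL1 also passed against HepG2 without the low-count filter (adjusted p = 0.0163) and with at least 10 counts in every sample (adjusted p = 0.0444). EGR1 also passed against HepG2 in DESeq2 (adjusted p = 0.0460) and without the low-count filter (adjusted p = 0.0368). Leaving out 1 library also let FOSL1 pass against HepG2 (without RCC4 hypoxic replicate 3, HepG2 normoxic replicate 1 or HepG2 hypoxic replicate 3, with adjusted p of 0.0398, 0.00583 and 0.0254), as it did EGR1 (without RCC4 hypoxic replicate 2 or HepG2 normoxic replicate 3, with adjusted p of 0.0484 and 0.00262) and JUNB (without HepG2 hypoxic replicate 3, adjusted p = 0.0326). In the other direction, the FOSL1 difference was 0.29 (adjusted p = 0.135) without HepG2 normoxic replicate 3, and the EGR1 difference was -0.42 (adjusted p = 0.159) without HepG2 normoxic replicate 1. Against HKC-8, JUNB passed without HKC-8 normoxic replicate 3 (adjusted p = 0.0300) and EGR1 without HKC-8 hypoxic replicate 3 (adjusted p = 0.0356). The JUN difference between RCC4 and HepG2 was lost when 1 spread was estimated over all 18 samples (adjusted p = 0.238).

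In normoxia the lines already differed for most of these transcripts, as for most genes. Each line has its own libraries, so the line cannot be told apart from how they were prepared or sequenced. RCC4 and HKC-8 differed for 7 of 10 (80.8% of 14806 genes), HepG2 and HKC-8 for 8 (83% of genes) and HepG2 and RCC4 for 8 (83.3% of genes), so the counts lie near the background. JUNB differed between the renal lines, at 32.2 ± 1.92 CPM (SD, n = 3) in RCC4 and 5.24 ± 1.08 CPM in HKC-8 (log2 difference 2.64, adjusted p = 6.51e-10). HepG2 lay between them at 10.3 ± 0.953 CPM and differed from each. FOSL2 was ordered RCC4 at 80.8 ± 3.34, HKC-8 at 59.1 ± 5.55 and HepG2 at 20.6 ± 0.432 CPM, with each step passing. JUND was ordered HepG2, RCC4 and HKC-8, at 51.4 ± 3.05, 41.5 ± 1.49 and 16.7 ± 0.485 CPM, again with each step passing. IER3 was highest in HepG2 at 6.83 ± 1.17 CPM, and its levels of 2.03 ± 0.355 CPM in HKC-8 and 1.45 ± 0.284 CPM in RCC4 missed the threshold (adjusted p = 0.0597). That difference passed with total counts (adjusted p = 0.0481), with 1 spread over all samples (adjusted p = 0.0297) and without HKC-8 normoxic replicate 3 (adjusted p = 0.0311) or RCC4 normoxic replicate 2 (adjusted p = 0.0408). EGR1 was ordered HepG2, HKC-8 and RCC4, at 21.9 ± 5.47, 14.4 ± 1.16 and 6.66 ± 0.660 CPM, with each step passing. FOSB stood at 1.67 ± 0.255 CPM in HKC-8 and at 0.588 ± 0.0388 and 0.577 ± 0.0155 CPM in HepG2 and RCC4, which were not shown to differ (adjusted p = 0.904). FOS stood at 1.31 ± 0.30 CPM in HepG2 and 0.926 ± 0.157 CPM in HKC-8, which did not differ beyond their spread (adjusted p = 0.0735), and was lower than either at 0.501 ± 0.0515 CPM in RCC4. ATF3 was not shown to differ between HKC-8 and RCC4, at 12.4 ± 2.01 and 12.3 ± 0.613 CPM (95% interval of the log2 difference -0.29 to 0.29), and lower in HepG2 at 8.68 ± 0.900 CPM. FOSL1 stood at 52.8 ± 4.28 CPM in RCC4, 41.2 ± 19.6 CPM in HKC-8 and 24.9 ± 6.24 CPM in HepG2. The step between the renal lines did not pass (adjusted p = 0.206) except without HKC-8 replicate 2 (adjusted p = 0.00339), and the step from HKC-8 to HepG2 (adjusted p = 0.0247) was lost without that replicate (adjusted p = 0.120) or HepG2 replicate 1 (adjusted p = 0.0724) or 2 (adjusted p = 0.0540). The step from HKC-8 to HepG2 was also lost in DESeq2 (adjusted p = 0.0722). JUN stood at 59.4 ± 18.7 CPM in HKC-8, 46.6 ± 6.44 CPM in HepG2 and 42.2 ± 0.932 CPM in RCC4, and of these the difference between HKC-8 and RCC4 passed (adjusted p = 0.0236) but was lost without HKC-8 replicate 1 (adjusted p = 0.0865) or 2 (adjusted p = 0.109) or RCC4 replicate 1 (adjusted p = 0.0586) or 3 (adjusted p = 0.0613). The JUN difference between HKC-8 and HepG2 missed the threshold (adjusted p = 0.103) and passed without HKC-8 replicate 3 (adjusted p = 6.53e-06) or without the low-count filter (adjusted p = 0.0306).

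Levels of different genes were set against each other per kilobase of the main annotated transcript, and each share below is of the summed CPM per kb of a family. FOSL1 held the largest share of the FOS family in 5 of 6 groups. In HKC-8 it made up 69.3 ± 8.80% (SD, n = 3) in normoxia and 42.6 ± 11.1% in hypoxia, while FOSL2 went from 27.8 ± 7.59% to 50.8 ± 9.90%. The FOSL2 share was the larger in hypoxic replicates 1 and 3, while in hypoxic replicate 2 FOSL1 still led with 54.6% against 40.0%. In HepG2 FOSL1 went from 78.7 ± 3.44% to 56.4 ± 3.02% and FOSL2 from 17.1 ± 3.30% to 34.6 ± 1.54%, while FOS itself reached 7.16 ± 1.45% in hypoxia. In RCC4 the make-up was close in both conditions, at 71.4 ± 1.10% and 73.4 ± 1.83% FOSL1, and FOS and FOSB each stayed under 1%. The lead depends on transcript length, since FOSL2 has 6713 exon bases and FOSL1 has 1702. In shares of plain counts FOSL1 led in 1 group, HepG2 normoxia, and FOSL2 led in the other 5.

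The summed JUN family stood at 29.8 ± 6.44 CPM per kb in normoxic and 40.3 ± 7.99 in hypoxic HKC-8 cells, and JUN held 60.3 ± 6.98% and 60.8 ± 2.82% of it. In HepG2 the sum went from 46.6 ± 0.405 to 79.8 ± 4.69 CPM per kb, and JUND held 57.2 ± 3.62% and 52.9 ± 1.57%. In RCC4 it went from 52.1 ± 2.07 to 64.2 ± 3.09 CPM per kb. There JUND led in normoxia with 41.3 ± 0.377% and JUNB led in hypoxia with 41.8 ± 0.567%. In shares of plain counts JUN led in both RCC4 groups and also in hypoxic HepG2 cells, with 51.4 ± 1.01% against 42.0 ± 1.44% for JUND. These shares were compared without a test.

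**Figure D3:**
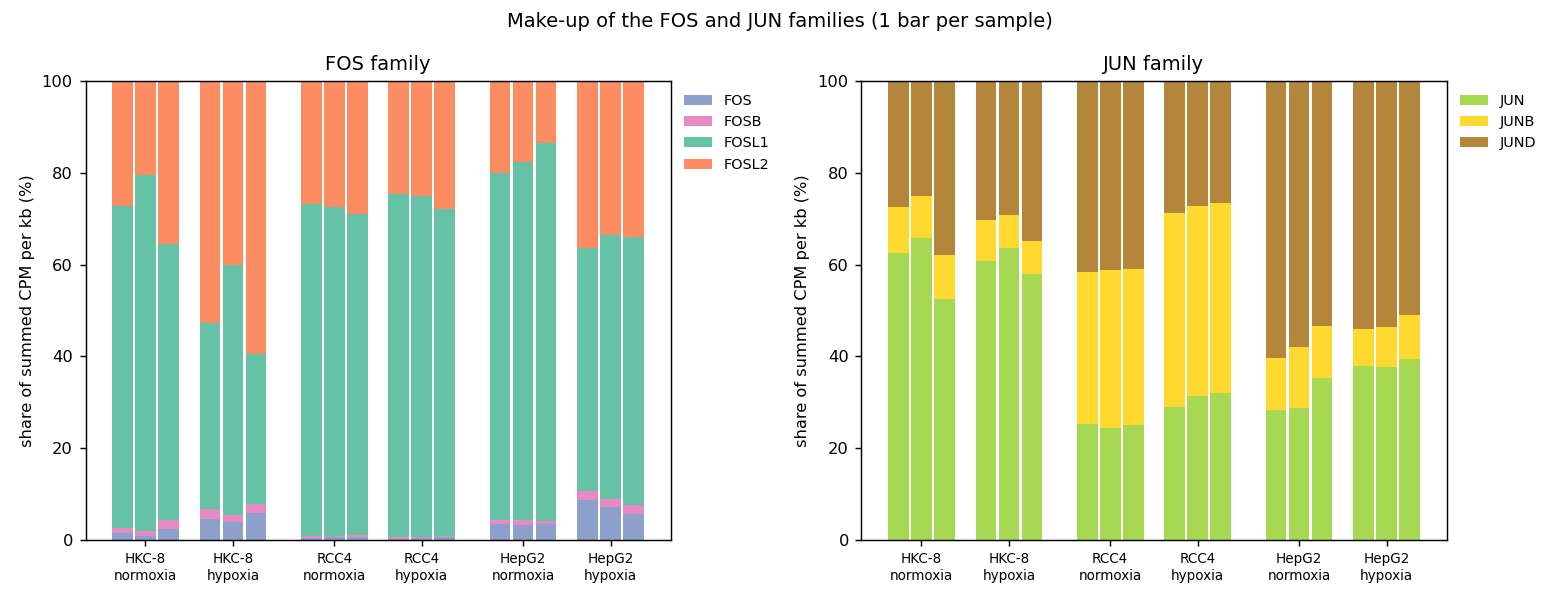
Share of summed CPM per kb held by each FOS family (left) and JUN family (right) transcript, 1 bar per sample, in percent. The FOSL2 share is larger in hypoxic than in normoxic HKC-8 and HepG2 samples, and in RCC4 the JUNB share grows from 33.8% to 41.8% on average.

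The shape of each transcript's response was described by its log2 CPM centred on its mean in each line, over the 18 samples, which share libraries and the contrast of oxygen. FOSL2 was most like PFKFB3 (Pearson r = 0.990), a glycolytic enzyme gene induced by hypoxia, FOS was most like VLDLR (r = 0.954), and ATF3 was most like RHOB (r = 0.963), itself an immediate early gene. JUN was most like SMS (r = 0.973), FOSB like RAP2B (r = 0.960), IER3 like MOB3A (r = 0.958), JUND like EVL (r = 0.949), FOSL1 like ANKRD13A (r = 0.921), JUNB like PEAK1 (r = 0.903) and EGR1 like MAGEE1 (r = 0.802). Among the 10 themselves the closest pair was FOSB with FOSL2 (r = 0.936), and FOSL1 had a negative r with FOS (-0.43), ATF3 (-0.49) and JUND (-0.29).

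Of 37 other immediate early genes, 11 rose and 1 fell among 34 tested in HKC-8, 13 rose and 6 fell among 30 in RCC4, and 20 rose and 4 fell among 31 in HepG2. Of all genes, 20.4, 50.1 and 39.1% were called in these lines. The median log2 fold changes of the list were 0.40, 0.11 and 0.41. In HKC-8 the 11 that rose became 6 without normoxic replicate 1 or hypoxic replicate 1 and 18 with the replicate block, and the 1 that fell became 0 without either of these libraries or hypoxic replicate 3 and 2 with the block. With 1 spread over all 18 samples, 4 rose and 2 fell in RCC4 and 2 fell in HepG2. DUSP1, the phosphatase that switches off MAP kinases, rose in every line, with log2 fold changes of 1.60 (adjusted p = 2.96e-19) in RCC4, 1.09 (adjusted p = 0.00219) in HKC-8 and 0.90 (adjusted p = 5.44e-06) in HepG2. ERRFI1, a feedback inhibitor of the EGF receptor, rose by 1.51 on the log2 scale in HKC-8 (adjusted p = 0.000160) and by 1.46 in HepG2 (adjusted p = 1.46e-08) and gave 0.08 in RCC4 (adjusted p = 0.175). ZFP36, which destabilises short-lived mRNAs, rose by 1.63 on the log2 scale in HepG2 (adjusted p = 2.97e-08) and fell by 0.56 in RCC4 (adjusted p = 0.0191), a call that was lost without RCC4 normoxic replicate 1 or 2 or hypoxic replicate 2. PLK2 fell in HKC-8 (log2 fold change -0.69, adjusted p = 0.0158) and in HepG2 (-0.45, adjusted p = 0.00437). Its HKC-8 call was lost without normoxic replicate 1 (adjusted p = 0.0719), hypoxic replicate 1 (adjusted p = 0.0713) or hypoxic replicate 3 (adjusted p = 0.0562).

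Among 12 related zipper factors that can pair with AP-1 proteins, MAFF, a small MAF protein without an activation domain, rose in all 3 lines, with log2 fold changes of 1.36 (adjusted p = 0.00557) in HKC-8, 0.98 (adjusted p = 1.14e-05) in HepG2 and 0.68 (adjusted p = 3.57e-07) in RCC4. JDP2, a JUN dimerisation protein that represses AP-1, rose in HKC-8 (1.09, adjusted p = 0.00308) and fell in RCC4 (-0.29, adjusted p = 0.00828) and HepG2 (-0.63, adjusted p = 0.00285). In all, 3 rose and none fell among 9 tested in HKC-8, 3 rose and 3 fell among 10 in RCC4, and 2 rose and 4 fell among 11 in HepG2, with medians of 0.19, -0.07 and -0.25, against calls for 20.4, 50.1 and 39.1% of all genes. The 2 that rose in HepG2 became 1 with total counts, with 1 spread over all 18 samples, and without hypoxic replicate 1 or 3. The JDP2 call in RCC4 was also lost with that single spread (adjusted p = 0.158).

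The 25 kinases and promoter factors upstream of immediate early genes were all tested in each line. In HKC-8 MAPK7 (0.56, adjusted p = 0.00785) and MAP2K1 (0.46, adjusted p = 0.0139) rose and none fell, with a list median of -0.02. In RCC4 10 rose and 6 fell (median -0.01), and in HepG2 7 rose and 3 fell (median 0.12). The shares of all genes called were again 20.4, 50.1 and 39.1% in HKC-8, RCC4 and HepG2. The count that fell in HepG2 was unstable, at 5 with total counts, 1 without the low-count filter, 0 with 1 spread over all 18 samples, and 0 or 1 on leaving out any single library other than normoxic replicate 3. In RCC4 2 fell with that single spread. In HKC-8 1 rose without normoxic replicate 1 or hypoxic replicate 1 and 4 rose with the block, while 3 fell with the block or the single spread and 2 without hypoxic replicate 2. MAP2K1, the kinase MEK1 that activates ERK, also rose in RCC4 (0.52, adjusted p = 3.15e-09) and HepG2 (0.71, adjusted p = 6.26e-06), and its HKC-8 call was lost without normoxic replicate 1 or hypoxic replicate 1.

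Of 21 genes known as AP-1 targets, 3 rose and 1 fell among 15 tested in HKC-8, 8 rose and 7 fell among 18 in RCC4, and 3 rose and 2 fell among 15 in HepG2, with medians of 0.09, 0.11 and 0.08, where 20.4, 50.1 and 39.1% of all genes were called. In HKC-8 the 3 that rose became 0 without normoxic replicate 1 and 5 without normoxic replicate 2 or with the block, and the 1 that fell became 2 without normoxic replicate 3 or hypoxic replicate 2 or with 1 spread over all 18 samples and 3 with the block. In HepG2 the 3 that rose became 6 without normoxic replicate 3 and 5 with the block or without the low-count filter. The 2 that fell there became 0 without normoxic replicate 2 or hypoxic replicate 1 or 2, 1 without normoxic replicate 3 and 4 without normoxic replicate 1. In RCC4 5 rose and 4 fell with the single spread. In RCC4 the cytokine genes IL8 (log2 fold change 1.30, adjusted p = 1.80e-13) and IL6 (1.24, adjusted p = 2.02e-10) rose, while CCL2 (-1.09, adjusted p = 1.06e-09) and the metalloproteinase gene MMP10 (-1.27, adjusted p = 0.00729) fell. IL6 also rose in HKC-8 (1.85, adjusted p = 0.0103), from a mean of 0.191 to 0.694 CPM. That HKC-8 call was lost without normoxic replicate 1 (adjusted p = 0.0545). HMOX1, the haem oxygenase gene, fell in HKC-8 (-0.84, adjusted p = 0.00457) and RCC4 (-0.36, adjusted p = 1.84e-06).

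ATF3 is also a product of the integrated stress response, in which phosphorylation of eIF2 alpha raises ATF4 translation. All 9 genes of that list rose in HKC-8, with a median log2 fold change of 1.21. The largest were CHAC1 (2.09, adjusted p = 0.000537), TRIB3 (2.00, adjusted p = 7.03e-06) and ASNS (1.93, adjusted p = 0.00853). In RCC4 2 rose, TRIB3 (1.45, adjusted p = 1.31e-18) and PPP1R15A (0.60, adjusted p = 4.32e-08), and 4 fell, while 1 fell with 1 spread over all 18 samples. In HepG2 none rose and 4 fell (1 rose without normoxic replicate 2, and 7 fell with total counts), among them DDIT3 (-0.96, adjusted p = 2.99e-05), the gene of the stress factor CHOP. Of all genes, 11.2% rose in HKC-8, 25.9% rose and 24.2% fell in RCC4, and 19.9% rose and 19.2% fell in HepG2. The line in which the whole list rose was the line in which ATF3 rose most, and the part of either in the other was not tested.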

How the data were processed

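PolyA+ RNA-seq libraries (ScriptSeq) of 18 samples were analysed. Per the labels and the methods, the authors trimmed reads with Trim Galore 0.3.3, aligned them to GRCh37 with TopHat2 2.0.8b and Bowtie 1.0.0, kept unique matches with SAMtools 0.1.19 and deposited raw counts per UCSC gene symbol from HTSeq 0.5.4p3, so reads shared by near-identical genes were dropped. Library totals were 40915980 to 97984260 counts, and intervals cover the model's sampling and sample spread.

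Counts were tested with edgeR 4.0.16 (R 4.3.3): filterByExpr, TMM, quasi-likelihood test, Benjamini-Hochberg adjustment over all genes tested, threshold 0.05. Each line was fitted alone (6 samples), interactions on 12 samples and normoxic levels on 9. Printed CPM use 1 TMM scaling over all 18 samples, and the likeness measure adds 0.5 CPM. Code was tested on simulated counts. The alternatives were DESeq2 1.42.0, median-of-ratios or total-count scaling, no filter or a minimum of 10 counts throughout, a joint fit of the 18 libraries, the replicate number as a block, and leaving out each sample. The joint fit, named above by its 1 spread, also set the filter and the scaling over all 18 samples. Replicates of a group differed beyond sampling noise (chi-square per degree of freedom at least 4.57). This measure ran from 32.9 to 91.5 in HKC-8 and reached 33.0 in HepG2 and 7.30 in RCC4. It also grows with read depth, which was highest in HKC-8. Counts of calls depend on the spread between samples as well as on the size of a response. Replicate numbers pair samples where every same-number correlation of deviations passes 0.1. In HKC-8, whose numbers come from the titles, they were 0.171, 0.624 and 0.569, and replicate 1 reached 0.153 with a sample of another number. RCC4 and HepG2 did not meet this.

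The 10 transcripts and the gene lists were chosen with earlier results of these data known. Named list genes are the up to 3 with the largest change in each direction per line among those called and not overlapping, of which some are printed together with their values in the other lines. Promoter windows are from RefSeq (table of GRCh38.p14), and gene models and lengths from the GENCODE annotation of GRCh37. Values of some listed genes are not reported here.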

Additional observations from a re-analysis of the deposited data

Results flagged for a closer look

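Responses of 6 transcripts differed between cell lines beyond the spread between samples in at least 1 comparison (edgeR interaction test, adjusted over all genes, with the adjusted p-values given above). Between HKC-8 and HepG2, the log2 fold change in HKC-8 minus that in HepG2 was -1.15 for FOSB, -0.72 for FOSL2 and 0.96 for ATF3. RCC4 minus HKC-8 was -1.82 for FOS, -0.48 for FOSL2, -0.83 for JUND and -1.20 for ATF3. RCC4 minus HepG2 was -1.65 for FOS, -1.35 for FOSB, -1.19 for FOSL2, -0.49 for JUN and -0.95 for JUND. FOSL2 is the transcript that differed in all 3 comparisons, and its response was smallest in RCC4 and largest in HepG2. JUND is the transcript whose response was called in opposite directions. In the RCC4 comparisons the labelled exposure differs with the line, and the 2 cannot be told apart. If the HKC-8 titles are right, the same holds between HKC-8 and HepG2.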

How the results depend on the processing

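Of 210 fold changes of the 10 transcripts within lines under other settings, 201 kept their direction and their side of the threshold, 5 lost and 4 gained a call and 0 reversed, and leaving out 1 sample did so for 163 of 180. Between lines the settings left 308 of 330 and leaving out 1 sample 585 of 630 as they were. The cause was not tested for any change below.

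The joint fit, with 1 spread, filter and scaling over all 18 samples, gave 5013 genes called in HKC-8 (2757 when fitted alone) and 3286 in RCC4 (6423). It gave 2219 for the difference between HKC-8 and HepG2 (1399) and 1886 for that between RCC4 and HepG2 (3355). The replicate block gave 5755 genes in HKC-8, 3019 for the difference between HKC-8 and HepG2 and 4071 for that between RCC4 and HKC-8 (2154), with 5 (3 without it) and 7 (4) of the 10 transcripts. In HepG2, where the numbers do not meet the rule for pairs although every sample of a number correlated best with its own, the block added EGR1 (0.25, adjusted p = 0.0267). It changed no other call of the 10 transcripts within lines beyond FOSL1 and JUN in HKC-8. Shares of plain counts left FOSL1 leading 1 group in place of 5.

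Leaving out 1 sample moved the number of genes called in HKC-8 between 1013 (without normoxic replicate 1) and 3283, with 1092 without hypoxic replicate 1, 1455 without normoxic replicate 2 and 1712 without hypoxic replicate 3, and that of the difference between HKC-8 and HepG2 between 911 (without HepG2 hypoxic replicate 1) and 1890. The log2 values that changed sign on leaving out 1 sample were not called at any point: JUNB in HKC-8 (-0.019 to 0.32), FOS in RCC4 (-0.30 to 0.17), FOSL1 in HepG2 (-0.17 to 0.18), the differences in response of FOS (-0.029 to 0.32) and EGR1 (-0.25 to 0.11) between HKC-8 and HepG2, of JUN between RCC4 and HKC-8 (-0.027 to 0.39) and of IER3 between RCC4 and HepG2 (-0.26 to 0.015), and the normoxic differences of ATF3 between RCC4 and HKC-8 (-0.13 to 0.066) and FOSB between HepG2 and RCC4 (-0.065 to 0.084). Those of ATF3 also turned with total counts (-0.026), without the filter (-0.014) and in the fit of all samples (-0.011), and that of FOSB without the filter (-0.027). In RCC4 the FOS and FOSB values rest on 13 to 41 reads per library, where the interval of the fold change spans more than 1 log2 unit.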
